A study of Homo sapiens with 7 samples.

Results

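The T-cell receptor gene segments were the 232 genes, of 60662 in the deposited files, whose annotated biotype was a T-cell receptor class and whose symbol named a variable (V), diversity (D), joining (J) or constant (C) segment of the alpha (TRA), beta (TRB), gamma (TRG) or delta (TRD) locus. They comprised 139 V, 4 D, 83 J and 6 C segments, of which 37 V or J segments were annotated as pseudogenes. By locus there were 115 TRA, 85 TRB, 21 TRG and 11 TRD segments, and the 5 TRAV segments also named as delta segments were counted with TRA. The study measured total RNA by sequencing in 7 libraries of 2 established human T-cell acute lymphoblastic leukaemia lines, to see what inactivation of STAG2, a subunit of the cohesin complex, does to expression. In the PF382 line, 3 libraries came from cells in which STAG2 was knocked out with Cas9 and guide RNA delivered as a ribonucleoprotein (STAG2KO), and 2 came from cells labelled wild type (WT). MOLT-14 gave 1 library after transduction of STAG2 and 1 after transduction of the empty vector (EV). The labels name no genotype for the starting MOLT-14 cells. They do not say whether the PF382 libraries are clones or separate cultures, so p-values measure only the spread between these libraries. PF382 titles also carry a code that the labels do not explain. It is SA for both WT libraries and STAG2KO replicate 1, and SB for STAG2KO replicates 2 and 3. SB thus occurs only in STAG2KO, and its part in the differences from WT cannot be told apart from the knockout.

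A T-cell receptor chain is encoded by a gene that a developing T cell assembles from separate segments: the recombinase made of RAG1 and RAG2 cuts beside a V, a J and, at the beta and delta loci, a D segment, and end joining ligates them. The assembled V(D)J exon is spliced to a C segment, so a clone such as a leukaemia line carries its own few joined V segments, while unjoined segments can give low transcription from their own promoters. Joining a pair of segments in the usual orientation deletes the DNA that lay between them. The TRD segments lie inside the TRA locus, and joining of a TRA V to a TRA J segment removes TRD. The beta locus has a pair of D, J and C clusters, ending in TRBC1 and TRBC2, and the gamma locus has J segments before TRGC1 and TRGC2.

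The segments on which the results turn are shown as reference sequence, taken from GENCODE 29 transcripts on GRCh38 and not read from the cell lines. The V segments with the most counts of TRB in PF382, and of TRD and TRG in MOLT-14, are given first. They are shown as the last coding bases of the V exon (at most 300), with the last in-frame TGT or TGC codon in capitals. This codon encodes the conserved cysteine at which the junction with the J segment begins. TRBV20-1 lies on the plus strand at chr7:142627100-142627399, TRDV1 on the plus strand at chr14:22096322-22096619, and TRGV3 on the minus strand at chr7:38358512-38358811.
TRBV20-1: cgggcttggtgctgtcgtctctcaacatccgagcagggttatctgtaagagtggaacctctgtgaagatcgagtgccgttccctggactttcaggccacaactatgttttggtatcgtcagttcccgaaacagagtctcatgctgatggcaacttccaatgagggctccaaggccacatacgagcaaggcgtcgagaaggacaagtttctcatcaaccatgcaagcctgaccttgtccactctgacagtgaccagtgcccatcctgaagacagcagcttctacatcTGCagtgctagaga
TRDV1: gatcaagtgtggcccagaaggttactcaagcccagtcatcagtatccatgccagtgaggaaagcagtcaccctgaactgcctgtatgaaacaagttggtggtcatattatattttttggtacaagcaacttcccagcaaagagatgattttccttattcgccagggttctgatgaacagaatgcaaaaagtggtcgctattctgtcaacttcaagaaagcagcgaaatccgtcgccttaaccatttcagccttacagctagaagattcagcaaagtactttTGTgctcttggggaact
TRGV3: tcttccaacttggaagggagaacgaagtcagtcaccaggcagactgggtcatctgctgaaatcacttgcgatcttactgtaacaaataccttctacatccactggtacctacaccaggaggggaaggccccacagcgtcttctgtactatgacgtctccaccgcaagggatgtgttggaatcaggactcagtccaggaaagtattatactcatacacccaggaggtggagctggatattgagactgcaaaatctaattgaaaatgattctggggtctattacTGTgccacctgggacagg

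For the other V segments described below, the last 60 coding bases are shown with the same codon in capitals. TRBV6-6 (chr7:142469954-142470013, plus strand) and TRBV6-5 (chr7:142451389-142451448, plus strand) were the V segments called between STAG2KO and WT. Over their whole coding length of 344 bases, 325 positions (94.5%) were identical. TRBV10-1 (chr7:142400318-142400377, plus strand) and TRBV28 (chr7:142721101-142721160, plus strand) had the most counts among MOLT-14 TRBV segments. TRGV8 (chr7:38330343-38330402), TRGV9 (chr7:38317017-38317076) and TRGV10 (chr7:38299811-38299870), all on the minus strand, are shown because the lines and the PF382 libraries differed in them.
TRBV6-6: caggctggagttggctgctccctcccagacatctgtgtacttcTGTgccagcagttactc
TRBV6-5: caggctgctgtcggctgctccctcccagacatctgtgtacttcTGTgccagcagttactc
TRBV10-1: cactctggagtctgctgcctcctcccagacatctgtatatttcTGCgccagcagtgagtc
TRBV28: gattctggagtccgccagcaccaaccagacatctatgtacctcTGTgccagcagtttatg
TRGV8: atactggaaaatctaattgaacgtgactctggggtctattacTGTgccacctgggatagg
TRGV9: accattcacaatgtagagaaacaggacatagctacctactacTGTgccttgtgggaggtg
TRGV10: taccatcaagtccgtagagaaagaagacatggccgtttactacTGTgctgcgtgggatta

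The constant segments of the beta and gamma loci come in near-identical pairs, so their reads can be told apart only where the pair differs. TRBC1, TRBC2, TRGC1 and TRGC2 all had fractional counts, so their counts include reads that the counting shared out among similar genes. For the gamma pair, TRGC1 (chr7:38265529-38265678, minus strand) and TRGC2 (chr7:38249423-38249572, minus strand), the first 150 coding bases are shown with the 4 differing bases in capitals. Over the whole first exon, 6 of 330 coding bases differed between them.
TRGC1: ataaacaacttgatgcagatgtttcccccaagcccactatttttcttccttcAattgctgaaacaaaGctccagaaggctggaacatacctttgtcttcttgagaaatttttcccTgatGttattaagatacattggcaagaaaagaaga
TRGC2: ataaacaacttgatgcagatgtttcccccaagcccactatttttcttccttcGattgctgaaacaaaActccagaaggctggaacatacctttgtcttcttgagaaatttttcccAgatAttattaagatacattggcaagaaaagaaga

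Library totals were 65262329, 93970572 and 81304948 counts in STAG2KO, 32609485 and 33145516 in WT, 45013450 in MOLT-14 STAG2 and 38678382 in MOLT-14 EV. A segment with no count could therefore have had up to 0.0321 to 0.0921 CPM, the value of 3 counts scaled within each line. CPM are counts per 1000000 of the scaled total of a library. STAG2 itself had 239, 166 and 181 CPM in STAG2KO, against 315 and 537 CPM in WT (log2 change -1.13, SE 0.26, adjusted p = 0.0218 by edgeR's quasi-likelihood test). In MOLT-14 it had 163 CPM with STAG2 and 1.36 CPM with EV. All 9 T-lineage markers (the CD3 chains, CD247, CD2, CD5, CD7, LCK and ZAP70) had counts in both lines, with a summed level of 2088 to 2352 CPM in STAG2KO, 2321 and 2568 CPM in WT, 2459 CPM in MOLT-14 STAG2 and 2179 CPM in MOLT-14 EV. LCK was the highest of the 9 in each library. CD2 had 0.580 to 1.31 CPM in STAG2KO, 0.589 and 1.63 CPM in WT, and 4.27 and 1.29 CPM in MOLT-14 STAG2 and EV. CD7 had 15.8 to 28.8 CPM in STAG2KO, 36.5 and 10.4 CPM in WT, and 506 and 491 CPM in MOLT-14 STAG2 and EV. LCK, CD2 and CD7 were singled out after their values were seen. In PF382, 0 of the 9 rose and 1 fell, CD5 (log2 change -0.95, adjusted p = 0.0041 by edgeR), against 14.6% of all genes lower. The 8 B-lineage markers summed to 4.16 to 18.3 CPM in STAG2KO, 39.5 and 9.18 CPM in WT, 50.7 CPM in MOLT-14 STAG2 and 36.2 CPM in MOLT-14 EV. Most of this was CD79A, at 3.57 to 17.8 CPM in STAG2KO, 35.2 and 6.57 CPM in WT, 49.1 CPM in MOLT-14 STAG2 and 35.4 CPM in MOLT-14 EV, and MS4A1 was at 0 in all 7 libraries. Of the 3 B-lineage markers tested in PF382, 1 fell, BLNK (log2 change -6.83, adjusted p = 0.00218 by edgeR). By the same test, 14.6% of all 17442 genes tested were called lower in STAG2KO and 15.8% higher. The 7 natural killer markers summed to 12.2 to 15.1 CPM in STAG2KO, 17.1 and 13.0 CPM in WT, 5.00 CPM in MOLT-14 STAG2 and 5.58 CPM in MOLT-14 EV, led in PF382 by NCAM1, and FCGR3A was at 0 in all 7. The 8 myeloid markers summed to 0.812 to 1.42 CPM in STAG2KO, 38.7 and 31.4 CPM in WT, 17.2 CPM in MOLT-14 STAG2 and 19.3 CPM in MOLT-14 EV. The 3 of them that could be tested in PF382 (ITGAM, CD68 and CTSG) were all called lower in STAG2KO, against the same 14.6% of all genes. CTSG had 16.1 and 16.0 CPM in MOLT-14 STAG2 and EV, and ELANE was at 0 in all 7. The part of these marker genes in the receptor results was not tested.

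Most segments had no count in either line. Of the 232, 150 were at 0 in all 7 libraries, 82 had a count in some library and 48 had at least 5 counts in some library. Counts were found for 58 segments in PF382 and 47 in MOLT-14. All 6 constant segments and 76 of the 139 V segments were among those detected. All 87 D and J segments were at 0 in every library. These are the shortest members, with exonic lengths of 8 to 13 bases for D and 46 to 69 bases for J segments, against 136 to 1735 bases for V segments. Whether the authors' counting can place reads in exons so short was not tested. The 8 TRBV copies on chromosome 9, outside the beta locus, were also at 0.

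PF382 transcribed the beta locus almost alone, and used TRBC2. TRBC2 had 2180, 1589 and 1646 CPM in STAG2KO, against 1521 and 2582 CPM in WT. In the same libraries TRBC1, of nearly equal length (760 exonic bases, against 758), had 0.155, 0.0655 and 0.0385 CPM in STAG2KO, against 0.121 and 0.126 CPM in WT. TRBC1 thus held 0.0023% to 0.00774% of the counts of the pair in PF382. Of all counts in receptor segments, not corrected for length, TRB held 99.1% to 99.9% in the 5 PF382 libraries, TRG 0.0612% to 0.804% and TRA 0.0127% to 0.231%. All 11 TRD segments were at 0 in all 5 PF382 libraries.

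MOLT-14 transcribed beta, gamma and delta segments together. TRB held 63.8% of its receptor segment counts with STAG2 and 67.3% with EV. The share of TRG was 30.9% with STAG2 and 26.0% with EV. The share of TRD was 4.98% with STAG2 and 6.49% with EV, and that of TRA 0.390% with STAG2 and 0.233% with EV. MOLT-14 used mostly the other beta constant segment: TRBC1 had 859 CPM with STAG2 and 747 CPM with EV, and TRBC2 had 153 and 143 CPM. TRBC1 held 84.9% (95% Clopper-Pearson interval 84.5 to 85.2) of the counts of the pair with STAG2 and 83.9% (83.5 to 84.3) with EV. These intervals, and those that follow for MOLT-14, cover counting error only, and not how reads shared by similar genes were divided.

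The gamma and delta constant segments separated the lines as well. TRGC2 had 1.25, 9.03 and 3.71 CPM in STAG2KO and 1.81 and 1.04 CPM in WT, against 323 CPM in MOLT-14 STAG2 and 236 CPM in MOLT-14 EV. TRGC1 had 0.124, 0.600 and 0.222 CPM in STAG2KO and 0.246 and 0.125 CPM in WT, against 39.9 CPM in MOLT-14 STAG2 and 28.8 CPM in MOLT-14 EV. Both gamma constant segments were low in every PF382 library and high in both MOLT-14 libraries. TRDC, the delta constant segment, had no count in any PF382 library, against 68.8 CPM in MOLT-14 STAG2 and 73.6 CPM in MOLT-14 EV. TRAC, the alpha constant segment, was low throughout, at 1.39, 0.866 and 2.90 CPM in STAG2KO, 3.03 and 0.153 CPM in WT, 2.30 CPM in MOLT-14 STAG2 and 0.291 CPM in MOLT-14 EV. The WT libraries lay at the ends of this range.

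**Figure D1:**
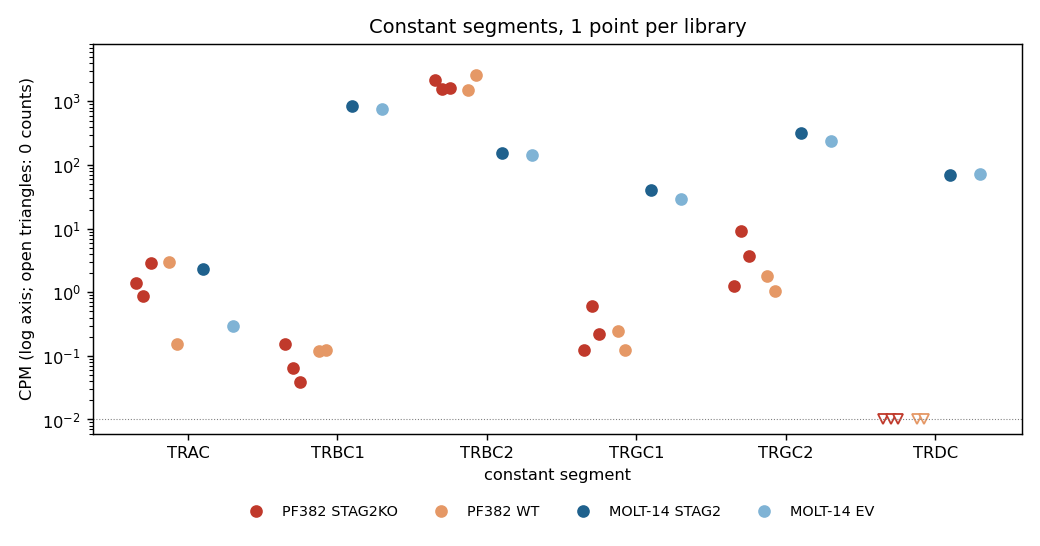
Constant segments in the 7 libraries (CPM on a log axis, 1 point per library, open triangles at 0 counts; red STAG2KO, orange WT, dark blue MOLT-14 STAG2, light blue MOLT-14 EV). PF382 libraries are high only for TRBC2 (1521 to 2582 CPM), whereas MOLT-14 libraries are high for TRBC1, TRBC2, TRGC1, TRGC2 and TRDC.

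Among V segments, 1 dominated the beta transcripts of PF382. TRBV20-1 had 970, 670 and 699 CPM in STAG2KO, against 719 and 1210 CPM in WT. It held 99.2%, 98.7% and 98.5% of TRBV counts in the STAG2KO libraries, against 95.4% and 94.7% in WT. The STAG2KO shares were all above those of WT, while the CPM of the groups overlapped. These shares and the TRBV6-6 shares that follow are parts of the same total and not separate results. TRBV6-6 came next in WT, with 3.20% and 4.47% of TRBV counts, against 0.111%, 0.602% and 0.616% in STAG2KO. The other 31 TRBV segments with counts in PF382 included TRBV7-5, an annotated pseudogene, at 1.69 to 2.18 CPM in STAG2KO and 1.90 and 2.39 CPM in WT. In MOLT-14, TRBV20-1 and TRBV6-6 were at 0 in both libraries.

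MOLT-14 had beta constant transcripts with few counts in any V segment. TRBV10-1 had 10.4 CPM with STAG2 and 11.5 CPM with EV, and TRBV28 had 5.43 and 5.02 CPM. They held 56.2% and 29.4% of TRBV counts with STAG2, and 57.6% and 25.1% with EV. Summed and divided by exonic length, TRBV segments reached 3.52% of the level of the TRBC segments with STAG2 and 4.32% with EV, both as CPM per kilobase. In PF382 the same quantity was 82.4%, 78.5% and 79.2% in STAG2KO, against 91.2% in each WT library. On the authors' TPM scale, which uses effective lengths, it was 4.84% in MOLT-14 STAG2 and 5.89% in MOLT-14 EV, and 112% to 116% in STAG2KO against 120% and 123% in WT. PF382 thus had V and C segments of TRB at like levels per length, and MOLT-14 had TRBC in over 10-fold excess on both scales. At the gamma locus of MOLT-14, V segments reached 77.9% of the C level per kilobase with STAG2 and 68.8% with EV, and at its delta locus 33.6% with STAG2 and 38.0% with EV.

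TRGV3 and TRGV8 carried the gamma V transcripts of MOLT-14. TRGV3 had 116 CPM with STAG2 and 72.1 CPM with EV, and TRGV8 had 19.8 and 15.1 CPM. They held 84.8% and 14.5% of TRGV counts with STAG2, and 82.3% and 17.2% with EV. TRDV1 had 11.7 CPM with STAG2 and 14.2 CPM with EV, and held all TRDV counts (495 and 585). Its alpha V counts were spread thinly, led by TRAV18 at 1.21 CPM with STAG2 and 0.995 CPM with EV, TRAV22 at 1.21 and 0.631 CPM, and TRAV19 at 0.569 and 0.728 CPM. In PF382 the alpha V segment with the highest mean over the 5 libraries, TRAV8-4, had 0.211 to 0.997 CPM in STAG2KO and 0.513 and 0.123 CPM in WT. In WT replicate 1, TRAV8-2 was above it, at 0.900 CPM.

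The V segments with counts lay in different stretches of the loci in each line. In PF382, the 11 TRBV segments between TRBV20-1 and TRBD1 were at 0 in all 5 libraries, while 31 of the 47 on the far side of TRBV20-1 had counts. In MOLT-14, where TRBV20-1 itself was at 0, 4 of the same 11 segments had counts, among them TRBV28. At the alpha locus of PF382, the 36 TRAV segments between TRAV8-4 and TRDC were at 0 in all 5 libraries, and 9 of the 17 TRAV segments on the far side of TRAV8-4 had counts. MOLT-14 showed the reverse distribution, with counts in 16 of those 36 and 1 of those 17. At its gamma locus the 5 TRGV segments between TRGV8 and TRGJP1 were at 0 in both libraries, whereas in PF382 TRGV9 and TRGV10, which are among those 5, had counts. These positions describe where transcripts were found. Which segments are joined or deleted in the DNA of the lines was not tested.

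**Figure D2:**
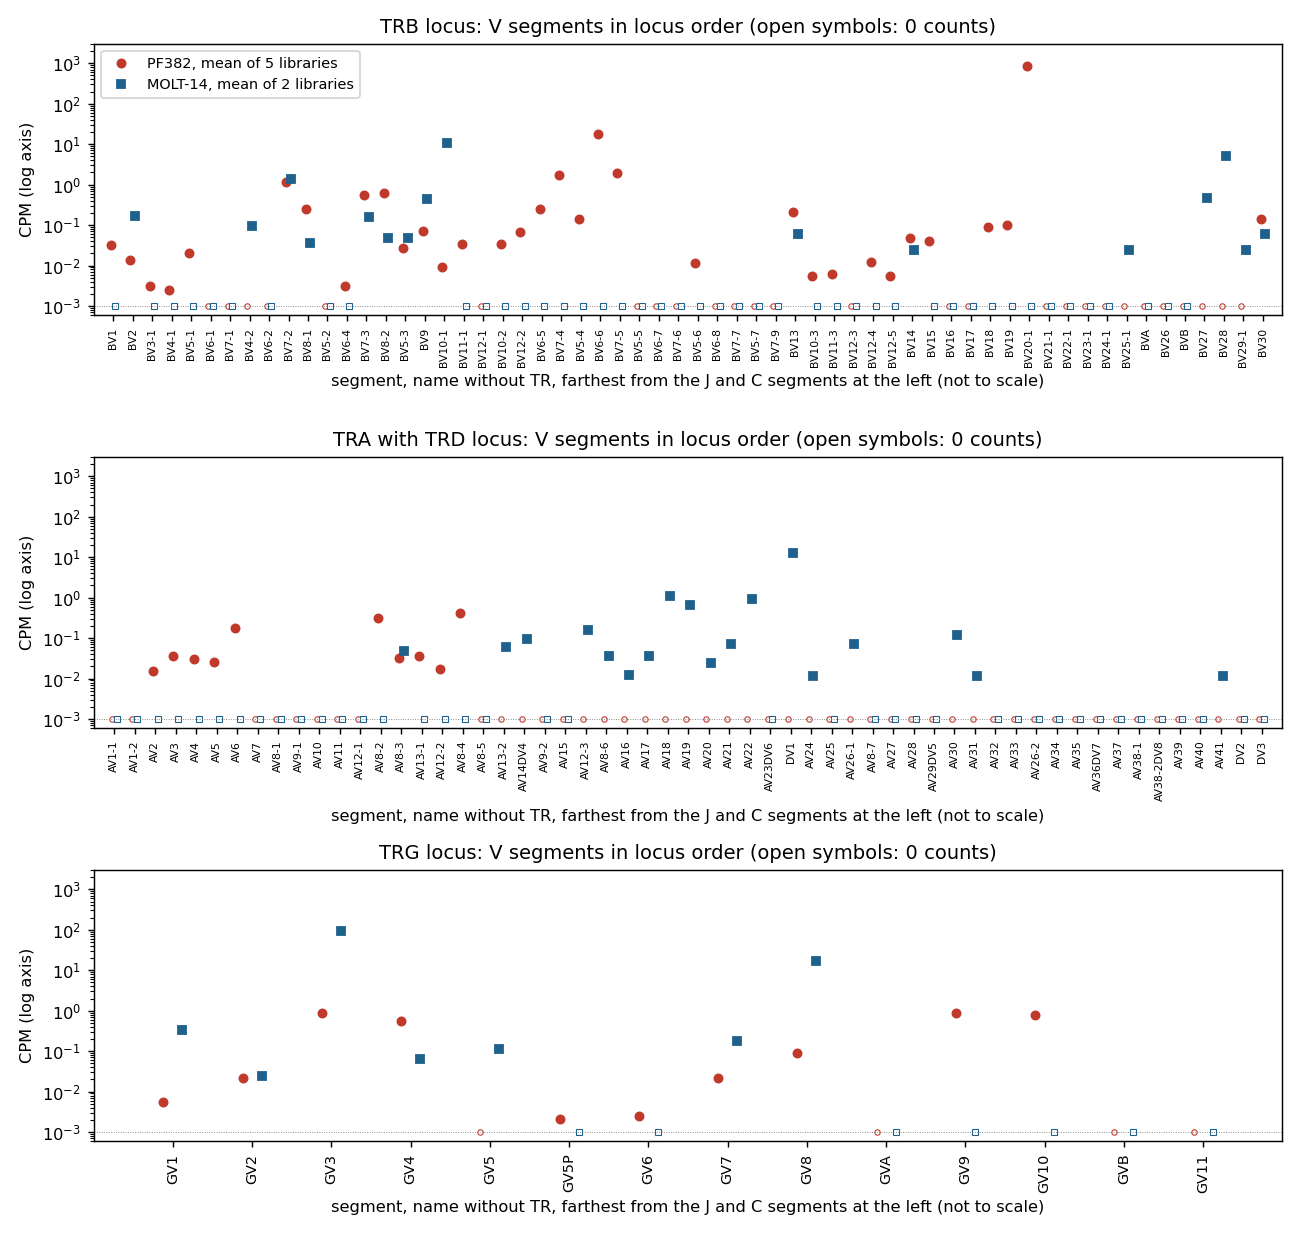
V segments of the beta locus (top), the alpha locus with the delta segments inside it (middle) and the gamma locus (bottom) in their order along the locus, with the mean CPM of the 5 PF382 libraries (red circles) and of the 2 MOLT-14 libraries (blue squares) on a log axis; open symbols mark 0 counts, and TRBV30 and TRDV3 lie beyond the C segments. TRBV20-1 stands out in PF382 and the 11 segments from TRBV21-1 to TRBV29-1 have no PF382 count, while MOLT-14 counts lead at TRBV10-1, TRDV1, TRGV3 and TRGV8.

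A fit of all 7 libraries, with line and presence of STAG2 as additive terms, compared the lines segment by segment. Of the 232 segments 32 had enough counts to be tested, and 13 were higher and 15 lower in PF382 than in MOLT-14 at an adjusted p under 0.05 by edgeR. Of all 18644 genes tested, 23.2% were higher and 26.4% lower (49.6% either way). TRB segments supplied 9 of the 13 that were higher in PF382 and 5 of the 15 that were lower. TRG supplied 2 of the higher and 5 of the lower, TRA 2 and 3, and both tested TRD segments were lower. Segments enter this fit through the line in which they have counts, so the counts describe the lines and are no measure of how unusual the members are. TRAC, TRBV13, TRBV7-2 and TRGV10 were not called. Without the MOLT-14 STAG2 library 8 segments were higher.

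The beta constant segments were called in opposite directions. TRBC1 was lower in PF382 (log2 difference -12.69, SE 0.31, adjusted p = 6.51e-07) and TRBC2 higher (log2 difference 4.01, SE 0.32, adjusted p = 8.03e-05). TRGC2 was lower by the same test (log2 difference -6.41, SE 0.72, adjusted p = 0.000347), and so was TRGV3 (log2 difference -6.30, SE 0.37, adjusted p = 1.82e-05). Where a line had no count, the fold is a bound set by 3 counts in each library, on the scaling over all 7 libraries. TRBV20-1 was at least 11480-fold higher and TRBV6-6 at least 18.5-fold higher in every PF382 library than that limit in MOLT-14. TRDC was at least 598-fold lower and TRDV1 at least 102-fold lower in PF382 than in either MOLT-14 library. Scaling all 7 libraries together, as done here, moved log2 differences of PF382 over MOLT-14 upward by 0.32 against the CPM given above, which are scaled within each line. TRBV7-2 had the log2 difference nearest 0 of the 32 segments, with 1.04, 0.930 and 0.669 CPM in STAG2KO and 1.56 and 1.75 CPM in WT, against 1.07 CPM in MOLT-14 STAG2 and 1.72 CPM in MOLT-14 EV (log2 difference 0.01, SE 0.45, adjusted p = 0.986).

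Within PF382, the levels of the dominant beta transcripts overlapped between STAG2KO and WT, and a minor V segment, TRBV6-6, was lower in STAG2KO. Of the 232 segments, 23 had enough counts for the test of STAG2KO over WT. None was higher and 2 were lower at an adjusted p under 0.05 by edgeR, against 15.8% higher and 14.6% lower (30.4% either way) of the 17442 genes tested. TRBV6-5, 1 of the 2, had enough counts for the test only in the WT libraries. Of the 23, 0 were higher and 5 lower at an unadjusted p under 0.05. DESeq2 called 2 higher and 3 lower, against 19.2% and 16.4% of all genes. Without STAG2KO replicate 3 edgeR called 1 lower (6.49% of all genes), and without WT replicate 1 it called 1 higher (TRAC; 19.6% of all genes). That last call set the 3 STAG2KO libraries against 1 WT library with 5 TRAC counts, with the spread taken from the STAG2KO libraries. The median log2 change of the 23 was -0.19, beside -0.02 for all genes tested. TRBC2 (log2 change -0.18, SE 0.26, adjusted p = 0.621) and TRBV20-1 (log2 change -0.31, SE 0.27, adjusted p = 0.414) did not pass the test. Summed over the locus, TRB had 2594 ± 491 CPM in STAG2KO (SD, n = 3) and 3066 ± 1121 CPM in WT (SD, n = 2).

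TRBV6-6 had 1.08, 4.08 and 4.37 CPM in STAG2KO, against 24.1 and 57.1 CPM in WT. Every STAG2KO library was below both WT libraries, and the means were 3.18 ± 1.82 CPM (SD, n = 3) in STAG2KO and 40.6 ± 23.4 CPM (SD, n = 2) in WT. The log2 change was -3.67 (SE 0.61, adjusted p = 0.00849 by edgeR). It stayed called when any 1 library was left out, with log2 changes of -4.14 to -2.89. Leaving out a WT library leaves 1, which is assumed to vary like the STAG2KO libraries. As the STAG2 term of the fit of all 7 libraries it was not called (log2 change -3.65, adjusted p = 0.124, over alternatives 0.000115 to 0.124). That term called 0 of 18644 genes in either direction, with 4432 at an unadjusted p under 0.05. In bulk RNA, fewer cells carrying a TRBV6-6 transcript and less of it per cell cannot be told apart.

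TRBV6-5, a neighbour of the same subfamily, had 1, 9 and 2 counts in STAG2KO, against 14 and 24 counts in WT. This was 0.0153, 0.0962 and 0.0252 CPM in STAG2KO and 0.412 and 0.736 CPM in WT (log2 change -3.51, SE 0.72, adjusted p = 0.0155 by edgeR). The groups did not overlap, but TRBV6-5 had enough counts for the test only in the WT libraries. The filter on low counts thus fixed this in advance, and it is no support for the call. TRBV6-5 counts were 0.578% to 2.36% of those of TRBV6-6 in STAG2KO and 1.71% and 1.29% in WT. The counts of both segments were whole numbers in every PF382 library. With 94.5% identical coding bases, reads of one segment could still be placed in the other, which was not tested. The call was lost without WT replicate 2, which leaves 1 WT library (adjusted p = 0.0524), and without STAG2KO replicate 3 (adjusted p = 0.0569). TRBV7-4 and TRBV5-4, which lie between these segments on chromosome 7, were not called. TRBV7-4 had 1.24, 1.02 and 1.51 CPM in STAG2KO and 2.87 and 1.90 CPM in WT (log2 change -0.93, SE 0.32, adjusted p = 0.0687). TRBV5-4 had 0.0505 to 0.137 CPM in STAG2KO and 0.177 and 0.276 CPM in WT (log2 change -1.44, SE 0.63, adjusted p = 0.126).

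Including these, STAG2KO and WT values lay apart for 7 of the 23 segments, all of them TRBV segments with every STAG2KO library lower. Of all genes tested, 29.5% had every STAG2KO library lower and 30.4% every one higher (59.8% either way). The remaining 3 were TRBV7-2, TRBV8-2 and TRBV30. Of the 7, TRBV6-5, TRBV5-4 and TRBV30 had enough counts for the test only in the WT libraries. For these segments the filter on low counts fixed in advance that every STAG2KO library lay lower. Their lying apart is thus no support for a lower level in STAG2KO. TRBV7-2 had 0.669 to 1.04 CPM in STAG2KO and 1.56 and 1.75 CPM in WT (log2 change -0.91, SE 0.31, adjusted p = 0.0689). The annotated pseudogene TRBV8-2 had 0.118 to 0.519 CPM in STAG2KO and 1.21 and 1.01 CPM in WT (log2 change -1.84, SE 0.59, adjusted p = 0.0559). TRBV30, the inverted V segment beyond TRBC2, had 0.0855 to 0.137 CPM in STAG2KO and 0.177 and 0.215 CPM in WT (log2 change -0.81, SE 0.51, adjusted p = 0.265). TRBV8-2, TRBV7-4, TRBV5-4 and TRBV30 were singled out after their values were seen.

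**Figure D3:**
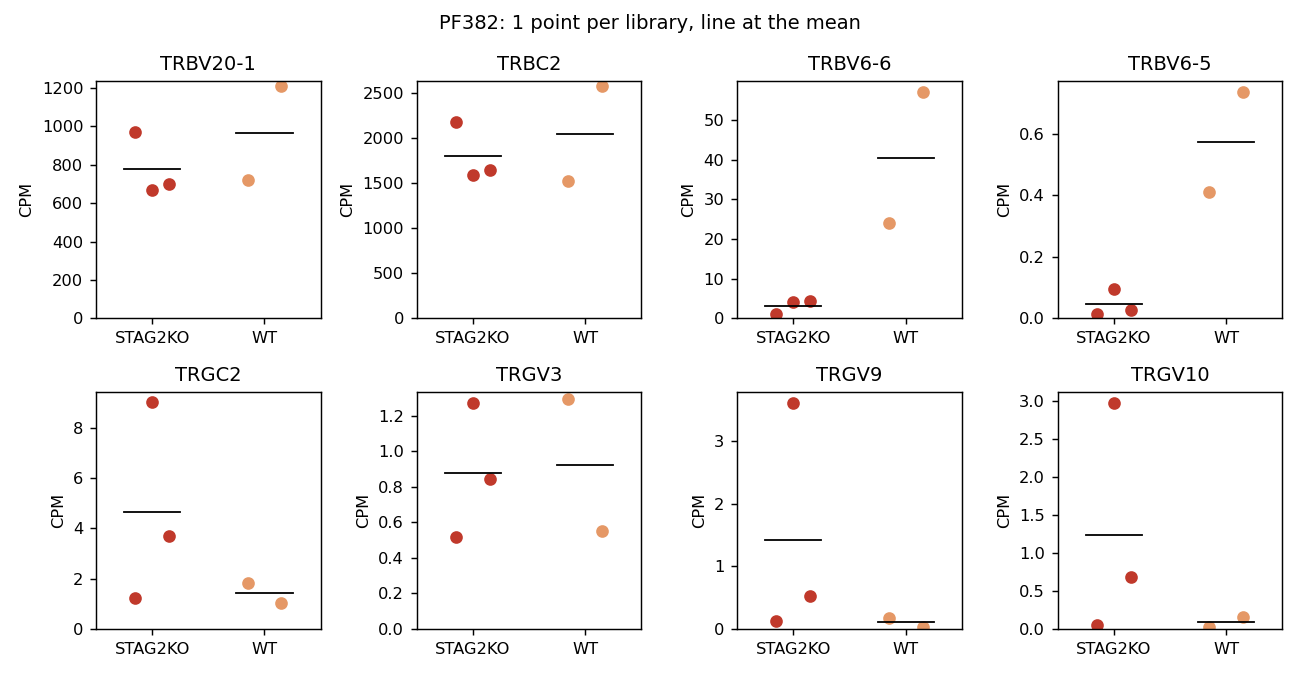
CPM of 8 segments in the 5 PF382 libraries (left STAG2KO, right WT in each panel; 1 point per library, line at the mean; each linear axis starts at 0). TRBV6-6 and TRBV6-5 have every STAG2KO point below both WT points, while TRBV20-1 and TRBC2 overlap, and TRGV9 and TRGV10 are led by 1 STAG2KO library. TRBV6-5 had enough counts for the test only in the WT libraries.

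Gamma segments spread widely among the STAG2KO libraries. TRGV9, the V segment of the main gamma delta population of human blood, had 0.122, 3.61 and 0.530 CPM in STAG2KO, against 0.177 and 0.0307 CPM in WT. TRGV10 had 0.0458, 2.97 and 0.681 CPM in STAG2KO, against 0.0294 and 0.153 CPM in WT. For both, STAG2KO replicate 2 was highest, replicate 3 was above WT and replicate 1 lay within the WT range. Replicates 2 and 3 are the libraries coded SB, while replicate 1 and the WT libraries are coded SA. Code and knockout cannot be told apart here. Neither passed edgeR's test (log2 change 3.75 for each, SE 1.64 and adjusted p = 0.126 for TRGV9, SE 1.72 and adjusted p = 0.141 for TRGV10). DESeq2 called both, at an adjusted p of 0.0185 for TRGV9 (over alternatives 0.0185 to 0.288) and 0.0289 for TRGV10 (0.0289 to 0.309).

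The makeup of the gamma V counts differed between these libraries. TRGV9 and TRGV10 held 41.3% and 33.9% of TRGV counts in STAG2KO replicate 2, which had 819 of them, and 17.4% and 22.3% in replicate 3. In STAG2KO replicate 1 they held 11.1% and 4.17%, in WT replicate 1 8.22% and 1.37%, and in WT replicate 2 2.56% and 12.8%. TRGV3 had 47.2%, 14.5% and 27.7% in STAG2KO, against 60.3% and 46.1% in WT. Its level, 0.519, 1.27 and 0.845 CPM in STAG2KO against 1.30 and 0.552 CPM in WT, overlapped between the groups. TRGC2 also had its highest level, 9.03 CPM, in STAG2KO replicate 2 (log2 change 1.70, SE 0.81, adjusted p = 0.152). With the libraries coded SA only, which leaves 1 STAG2KO library, its log2 change was -0.22. Summed over the locus, TRG had 9.28 ± 8.20 CPM in STAG2KO (SD, n = 3) and 3.29 ± 1.31 CPM in WT (SD, n = 2), and the groups overlapped. The log2 ratio of these means was 1.50, and 0.53 without STAG2KO replicate 2.

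At the alpha locus, 2.73 ± 1.72 CPM in STAG2KO (SD, n = 3) stood beside 2.88 ± 3.38 CPM in WT (SD, n = 2). The WT libraries themselves differed, at 5.27 CPM in replicate 1 and 0.491 CPM in replicate 2. TRAC did not pass the test (log2 change 0.11, SE 1.01, adjusted p = 0.945), but with WT replicate 1 left out, against the lone other WT library, it did (log2 change 3.48, adjusted p = 0.0331, over alternatives 0.0331 to 0.9998), so that its value rests on which WT library is used.

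**Figure D4:**
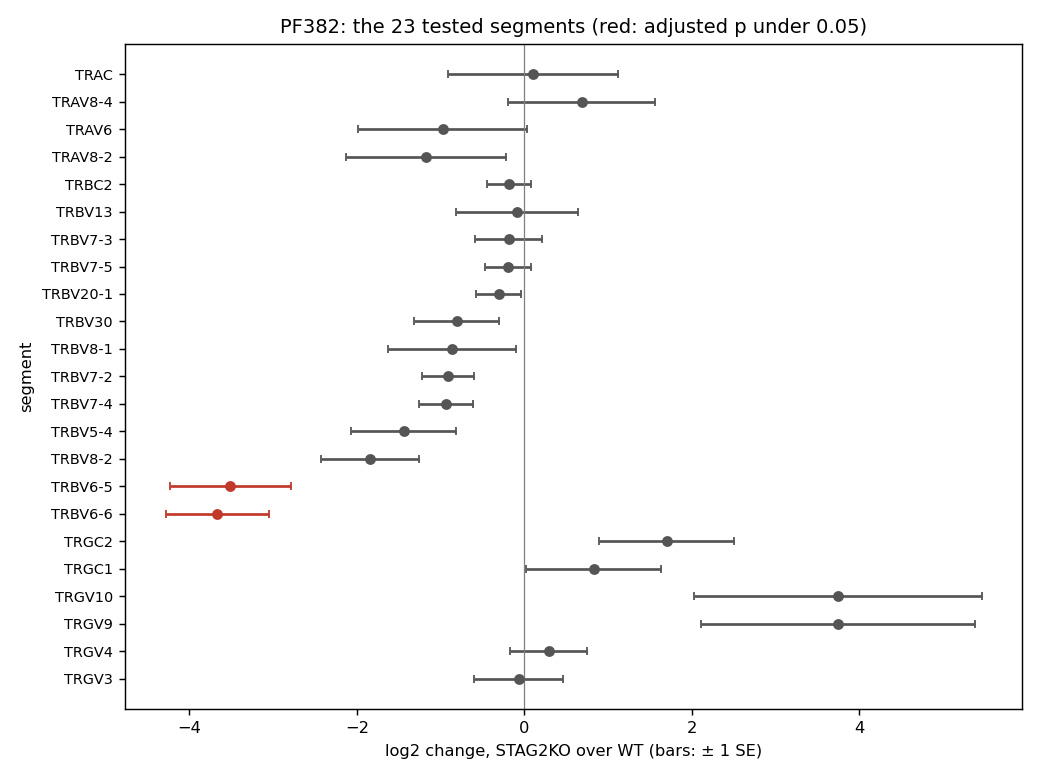
Log2 change of STAG2KO over WT in PF382 for the 23 tested segments, with bars of 1 SE; red marks an adjusted p under 0.05. The 2 called segments, TRBV6-6 (-3.67) and TRBV6-5 (-3.51), lie at the left, and TRGV9 and TRGV10 (3.75 each) at the right with wide bars.

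In MOLT-14 the STAG2 and EV libraries had no replicate, so their ratios carry no test. Of the 232 segments, 10 had at least 5 CPM in either library, and 0 were past 2-fold in either direction. Of the 11443 genes at this level, 1.14% were past 2-fold higher and 0.813% past 2-fold lower (1.96% either way). The 4 gamma segments had the highest log2 ratios of STAG2 over EV: 0.68 for TRGV3 (interval 0.62 to 0.75), 0.47 for TRGC1, 0.45 for TRGC2 (interval 0.42 to 0.49) and 0.39 for TRGV8. The 3 segments with ratios below 0 were TRDV1 (-0.27), TRBV10-1 (-0.15, interval -0.35 to 0.04) and TRDC (-0.10). TRBC1 and TRBC2 had log2 ratios of 0.20 and 0.10. Below that level, TRAC had 97 counts with STAG2 and 12 with EV (log2 ratio 2.79, interval 2.11 to 3.98), and it was the 1 segment past 2-fold when the minimum was set at 1 CPM. At that minimum 1.95% of 14700 genes were past 2-fold higher.

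Summed by locus, the log2 ratio of STAG2 over EV was 0.18 for TRB (1030 CPM with STAG2 and 910 CPM with EV), 0.50 for TRG (499 and 352 CPM) and -0.12 for TRD (80.5 and 87.8 CPM). TRA had 6.31 CPM with STAG2 and 3.15 CPM with EV (interval of the log2 ratio 0.69 to 1.31). The size of these ratios, and for TRB and TRG also the sign, depends on the scaling. On the authors' TPM the TRB ratio was -0.40, the TRG ratio -0.03, the TRD ratio -0.72 and the TRA ratio 0.11. On both scales TRG stood above TRB and TRB above TRD. Whether the effect of STAG2 differed between the lines was tested in a fit of the 4 groups, added after the data had been seen. Each MOLT-14 group gave this fit 1 library, and some segments were at 0 throughout a line, with no change there to compare. The fit therefore cannot show that the effect was alike in the lines. Of 32 segments tested 0 were called by edgeR, with a smallest adjusted p of 0.170 and 2 at an unadjusted p under 0.05, against 0.681% of all genes called.

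**Figure D5:**
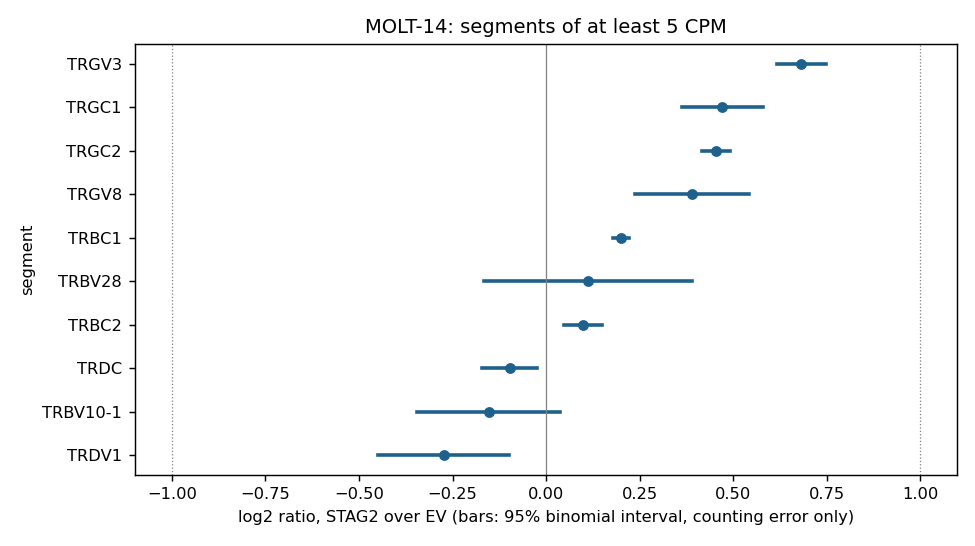
Log2 ratio of STAG2 over EV in MOLT-14 for the 10 segments of at least 5 CPM in either library, with 95% binomial intervals that cover counting error only; dotted lines mark 2-fold. The 4 gamma segments lie at 0.39 to 0.68 and the 2 delta segments at -0.27 and -0.10.

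Genes that assemble, accompany or regulate the receptor were counted in 3 lists, each read against the 15.8% higher and 14.6% lower of all genes. Of 15 recombinase and end-joining genes, 5 rose, 3 fell and 7 were not called in STAG2KO over WT. XRCC6 and XRCC5, the Ku subunits that bind broken ends, rose (log2 changes 0.89, SE 0.17, adjusted p = 0.0131, and 0.88, SE 0.17, adjusted p = 0.0137). LIG4, the ligase of end joining, fell by 0.59 on the log2 scale (SE 0.13, adjusted p = 0.0180). DNTT, which adds bases at the junctions, had 2.56, 6.42 and 11.2 CPM in STAG2KO, against 21.8 and 46.2 CPM in WT (log2 change -2.33, SE 0.59, adjusted p = 0.0278). RAG1 had 190, 153 and 304 CPM in STAG2KO, against 52.3 and 4.51 CPM in WT, which did not pass the test (log2 change 2.92, SE 0.94, adjusted p = 0.0566). DNTT and RAG1 were singled out after their values were seen.

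Of the 5 CD3 and pre-receptor genes, 0 were called by edgeR, with 0 higher and 2 lower at an unadjusted p under 0.05, and DESeq2 called 0 higher and 1 lower. PTCRA, the invariant chain that pairs with a newly made beta chain, had 55.8, 28.1 and 72.4 CPM in STAG2KO and 38.4 and 51.3 CPM in WT, against 0.213 CPM in MOLT-14 STAG2 and 0.0970 CPM in MOLT-14 EV. Of 18 factors known to bind receptor promoters or enhancers, 3 rose, 6 fell and 9 were not called. MYB fell by 0.95 (SE 0.15, adjusted p = 0.00780) and ETS1 by 0.59 (SE 0.12, adjusted p = 0.0166) on the log2 scale. Of the 7 cohesin genes, 1 rose, STAG1, the alternative to STAG2 in the complex (log2 change 1.36, SE 0.11, adjusted p = 0.00222). RAD21 and STAG2 fell, RAD21 by 0.88 on the log2 scale (SE 0.13, adjusted p = 0.00628). Immunoglobulin segments, the B-cell counterpart of the receptor segments, summed to 16.4 to 21.2 CPM in STAG2KO, 19.0 and 24.7 CPM in WT, 31.8 CPM in MOLT-14 STAG2 and 34.3 CPM in MOLT-14 EV. Of the 19 tested among 414 of them, 1 rose and 3 fell. The cohesin and immunoglobulin counts are also to be read against the 15.8% higher and 14.6% lower of all genes.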

How the data were processed

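Total RNA from 7 cell line libraries had been aligned and counted with STAR and RSEM on GRCh38 (also named hg38), per the submitters' processing notes; versions, annotation release and strand setting were not given in the sources used here. The authors deposited expected counts per gene, per the file headers: estimated reads, not normalised, that need not be whole. The authors' TPM, scaled by effective length and to a fixed sum per library, was used only for comparison, and FPKM was not used.

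Expected counts were rounded to whole numbers; 91.8% to 93.3% were whole already, and 13 segments had fractional counts, so their reads are shared with similar genes. CPM used TMM-scaled totals within each line. PF382 was fitted in R 4.3.3 with edgeR 4.0.16 (filterByExpr, quasi-likelihood test, two-sided, Benjamini-Hochberg over all genes, threshold 0.05), and DESeq2 1.42.0 was an alternative. All adjusted p-values are edgeR's unless DESeq2 is named. SEs were derived from edgeR's F. MOLT-14 ratios used a prior count of 2. Intervals are 95% Clopper-Pearson. The code was tested on simulated data. Positions, lengths and sequences came from GENCODE 29, which held all 232 segments. Replicate numbers follow accession order and pair nothing.

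Named are all C segments, the 3 highest V segments per locus and line of at least 0.5 CPM, called segments, the 4 most extreme MOLT-14 ratios each way, and up to 3 genes per list by adjusted p, beside those stated as chosen later; 1 gene that the rule names is not reported here. Members and lists were chosen with earlier results of these data known.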

Additional observations from a re-analysis of the deposited data

How the results depend on the processing

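No paired analysis was possible because the labels give no replicate numbers that the groups share. In PF382 the count of segments called higher was 0, and 2 with DESeq2 (TRGV9 and TRGV10); leaving out 1 library gave 0 to 1 (TRAC, without WT replicate 1). The count called lower was 2, and it was 5 with upper-quartile scaling, 4 with no filter on low counts, 1 with the libraries coded SA only and 0 for the STAG2 term of all 7 libraries; leaving out 1 library gave 1 to 3. Over all genes, upper-quartile scaling called 20.4% lower, no filter 8.32%, the libraries coded SA 1.14% (1.82% either way) and the STAG2 term 0 of 18644. Leaving out 1 library called 1194 to 3570 genes higher and 1077 to 2734 lower. TRBV6-6 was called in 13 of 14 alternatives and TRBV6-5 in 9 of 13, with adjusted p-values of 0.00489 to 0.128 for TRBV6-5. TRBV8-2 was called in 4 of 13 and TRBV7-2 in 2 of 14. Between the lines, a minimum mean of 1 CPM gave 5 segments higher and 9 lower, since fewer were tested, and leaving out 1 library gave 8 (without MOLT-14 STAG2) to 13 higher and 13 to 15 lower. At a minimum of 1 CPM, 1 segment was past 2-fold higher in MOLT-14.

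For the locus totals, leaving out 1 PF382 library moved the log2 ratio of STAG2KO over WT to -0.95 to 2.48 (without WT replicate 1) for TRA, -0.57 to 0.19 (without WT replicate 2) for TRB and 0.53 (without STAG2KO replicate 2) to 1.97 for TRG, and the TRG ratio was 3.46 over segments with whole counts only. In MOLT-14 the TRB ratio was -0.0066 with unscaled totals, 0.062 with small RNA genes left out, -0.40 by TPM and -0.12 over whole counts. The TRG ratio under these 4 alternatives was 0.32, 0.39, -0.032 and 0.40. The TRD ratio was -0.31, -0.24 and -0.72 under the first 3, and the TRA ratio 0.11 by TPM. Causes were not tested. Depth limits the low segments: WT libraries have the fewest counts, and 3 counts there are 0.0883 and 0.0921 CPM.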
